A study of Mus musculus with 6 samples.

Results

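The genes described here were 9 receptors of the myeloid cell surface, namely Cd300a, Cd300c2, Cd300lb, Cd300lf, Lilrb4a, Pirb, Lair1, Cd200r1 and Clec7a, out of 21899 genes in the count table. They were selected on the measured difference between RN and RC together with their membership of the CD300, LILRB, PIR and related receptor families, so their RN and RC values are given as a description without a test. All 9 had a row in the table, and all 9 passed the filter on low counts that left 14956 genes for testing. Lilrb4a passed through its counts in RN alone, because it had 0 counts in 2 of the RC mice.

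Bulk RNA sequencing was performed on thalamus from wild-type male C57BL/6J mice, 3 per group, that were 8 to 10 weeks old and had received 50 Gy of radiation to the thalamus. RC mice (radiation and control virus) were injected 2 weeks later with 2 µL of AAV9 GFAP104::tdTomato, which carries a red fluorescent protein. RN mice (radiation and NeuroD1 virus) received the same volume of AAV9 GFAP104::mND1-tdTomato, which adds mouse NeuroD1, a transcription factor that drives neuronal differentiation. Both groups shared the irradiation, the serotype and the GFAP104 promoter, which is active in astrocytes, and tissue was collected at 6 weeks from irradiation. The comparison asks how the irradiated tissue differs when astrocytes are made to express NeuroD1. The receptors are described here as myeloid receptors, but the cells that their counts came from cannot be told in bulk tissue.

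Myeloid cells such as microglia, macrophages, monocytes and neutrophils carry receptors that raise or restrain their activity. Inhibitory receptors hold a short tyrosine motif (ITIM) in their cytoplasmic tail that recruits the phosphatases SHP-1 and SHP-2. Activating members of the same families have short tails and signal through the adaptors DAP12 (Tyrobp) or the Fc receptor gamma chain (Fcer1g) and the kinase Syk, and because the inhibitory and activating forms lie side by side in the genome with similar outer domains, they are called paired receptors. In brain many of them are known from microglia and infiltrating macrophages. Their ligands include lipids of dying cells, collagens, MHC class I and CD200. Which cells carried the receptors in this tissue was not tested.

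The 4 CD300 genes lay in 1 run of 12 protein-coding genes on chromosome 11, which held 11 Cd300 genes and Rab37. Pirb and Lair1 lay within a run of 7 genes on chromosome 7 that included Pira genes, the activating partners of Pirb. Cd200r1 lay beside Cd200r4, Cd200r2 and Cd200r3 on chromosome 16, Clec7a between Clec1a and Olr1 on chromosome 6, and Lilrb4a on chromosome 10.

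For 1 of the receptors the sequence limits what its count can mean. Every stretch of 50 bases and of 100 bases of the longest protein-coding Lilrb4a transcript (1381 bases, GENCODE M21) also occurred in Gm49339 (ENSMUSG00000062593). Gm49339 is a protein-coding gene annotated over Lilrb4a on the same strand. Lilrb4b, the neighbouring copy, held 27.6% of the 50-base stretches of Lilrb4a and 14.3% of the 100-base ones. The first 60 coding bases of the 3 genes are shown to make this visible, on the + strand of chromosome 10 (GRCm38), with the coding start at position 51491018 for Lilrb4a and at 51480720 for both Gm49339 and Lilrb4b. The capital marks the 1 base that differs from Lilrb4a.
Lilrb4a: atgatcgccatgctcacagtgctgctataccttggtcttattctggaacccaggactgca
Gm49339: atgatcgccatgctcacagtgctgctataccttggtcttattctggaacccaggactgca
Lilrb4b: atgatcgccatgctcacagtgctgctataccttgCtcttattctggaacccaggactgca

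Of the other receptors, Pirb shared 37.3% of its 50-base stretches with other genes, mostly with Pira12, and 24.6% of its 100-base stretches. Cd300c2 shared 8.00% with other genes, mostly Cd300a, and Cd300lf shared 6.43%, mostly with Cd300ld. The shares were 3.31% for Cd300a, 2.17% for Cd200r1 and 0.59% for Lair1, while Cd300lb and Clec7a shared none. Cd300lf lay within Rab37, a gene of the opposite strand, and Cd300lb overlapped an opposite-strand pseudogene. Whether the counting used strand is not given in the sources used here, so for these 2 receptors reads of the other gene cannot be told apart.

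The libraries held between 16561663 and 18657015 counts, so that 3 counts, the limit that a count of 0 allows, stood for 0.160 to 0.179 CPM (counts scaled to the TMM-adjusted library total). These limits cover counting error only. Neurod1, which the RN virus delivers, gave 84, 91 and 90 counts in the RC mice, against 1123, 1711 and 910 in RN, in which viral and mouse transcripts are not separated. The libraries also differed in choroid plexus, the tissue that makes cerebrospinal fluid. All 10 of its tested markers had a lower mean in RN, with a summed level of 327 to 8496 CPM in the RC mice and 62.2 to 144 CPM in the RN mice, and RC replicate 2 was the highest.

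Among the inhibitory receptors, Cd300a (ENSMUSG00000034652), which binds phosphatidylserine and phosphatidylethanolamine on dying cells, gave 190, 191 and 155 counts in the RC mice, against 382, 446 and 462 in the RN mice. Every RN mouse lay above every RC mouse. The mean was 10.3 ± 1.30 CPM for RC against 24.1 ± 1.58 CPM for RN (± SD, n = 3 mice each), a 2.34-fold higher mean in RN, which is a log2 difference of 1.23 (standard error 0.141). It was the only receptor of the 9 past the thresholds of edgeR's quasi-likelihood test, which were an adjusted p below 0.05 with a change of 2-fold or more. Over all 14956 tested genes, 0.0602% were called higher by this rule and 0.0134% lower, and nothing is read from the count of 1 because the rule that chose the receptors used the same contrast. With the replicate number as a block, where the log2 fold change was 1.23 again, Cd300a was not called, nor was it with a choroid plexus score in the fit. It was called without RN replicate 1 and not without any other 1 mouse, with log2 fold changes between 1.13 and 1.30.

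Cd300lf (ENSMUSG00000047798), an ITIM receptor for phosphatidylserine and ceramide, gave 89, 63 and 46 counts in the RC mice, against 71, 122 and 98 in the RN mice. RN replicate 1 lay within the RC range and the other RN mice above it. The mean was 3.80 ± 1.18 CPM for RC against 5.41 ± 1.15 CPM for RN, which is a log2 difference of 0.51 (standard error 0.287).

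Pirb (ENSMUSG00000058818), a receptor for MHC class I that also binds the myelin protein Nogo, gave 189, 222 and 186 counts in the RC mice, against 191, 420 and 316 in the RN mice. Its RN mice were spread widely, with replicate 1 inside the RC range and replicates 2 and 3 above it. The mean was 11.5 ± 1.52 CPM for RC against 17.2 ± 5.56 CPM for RN, which is a log2 difference of 0.58 (standard error 0.243). Counted together with Pira2, Pira12 and Pira13, the genes named in the list as its activating partners that had a row, the log2 fold change was 0.56 (standard error 0.218), and the groups again overlapped.

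Lair1 (ENSMUSG00000055541), an inhibitory receptor for collagens, gave 713, 562 and 516 counts in the RC mice, against 465, 636 and 631 in the RN mice. It was the only receptor of the 9 with a lower mean in RN, with RC replicate 1 the highest mouse and RN replicate 1 the lowest. The mean was 34.4 ± 5.26 CPM for RC against 32.3 ± 4.08 CPM for RN, which is a log2 difference of -0.09 (standard error 0.145), so that the difference was smaller than the spread between mice. Leaving out RC replicate 1 gave 0.03 and leaving out RN replicate 1 gave 0.01, so its direction rested on those mice.

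Cd200r1 (ENSMUSG00000022667), the receptor for CD200, restrains myeloid cells through DOK adaptors and not through an ITIM. It gave 27, 20 and 17 counts in the RC mice, against 23, 46 and 31 in the RN mice, the fewest of the receptors other than Lilrb4a. RN replicate 1 again lay within the RC range. The mean was 1.23 ± 0.272 CPM for RC against 1.85 ± 0.556 CPM for RN, which is a log2 difference of 0.59 (standard error 0.360).

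Among the activating receptors, Clec7a (Dectin-1, ENSMUSG00000079293), a C-type lectin that binds beta-glucans and signals through Syk, gave 206, 150 and 141 counts in the RC mice, against 339, 365 and 346 in the RN mice. The groups did not overlap, and the RN mice lay close together. The mean was 9.53 ± 1.81 CPM for RC against 19.7 ± 0.432 CPM for RN, a 2.06-fold higher mean in RN, which is a log2 difference of 1.04 (standard error 0.161). Leaving out 1 mouse at a time gave between 0.94 and 1.21.

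Cd300c2 (ENSMUSG00000044811), which has a short tail and pairs with DAP12, gave 383, 367 and 324 counts in the RC mice, against 308, 561 and 499 in the RN mice. RN replicate 1 lay below every RC mouse while RN replicates 2 and 3 lay above, so the mean difference came with mice on both sides. The mean was 20.7 ± 1.83 CPM for RC against 25.4 ± 6.22 CPM for RN, which is a log2 difference of 0.30 (standard error 0.188). It was 0.49 without RN replicate 1 and 0.16 without RN replicate 2.

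Cd300lb (ENSMUSG00000063193), another DAP12-coupled CD300 receptor, gave 58, 72 and 67 counts in the RC mice, against 73, 77 and 124 in the RN mice. Here RN replicate 2 lay within the RC range and replicate 3 was the highest. The mean was 3.80 ± 0.526 CPM for RC against 5.13 ± 1.57 CPM for RN, which is a log2 difference of 0.43 (standard error 0.266), which was 0.16 without RN replicate 3.

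**Figure D1:**
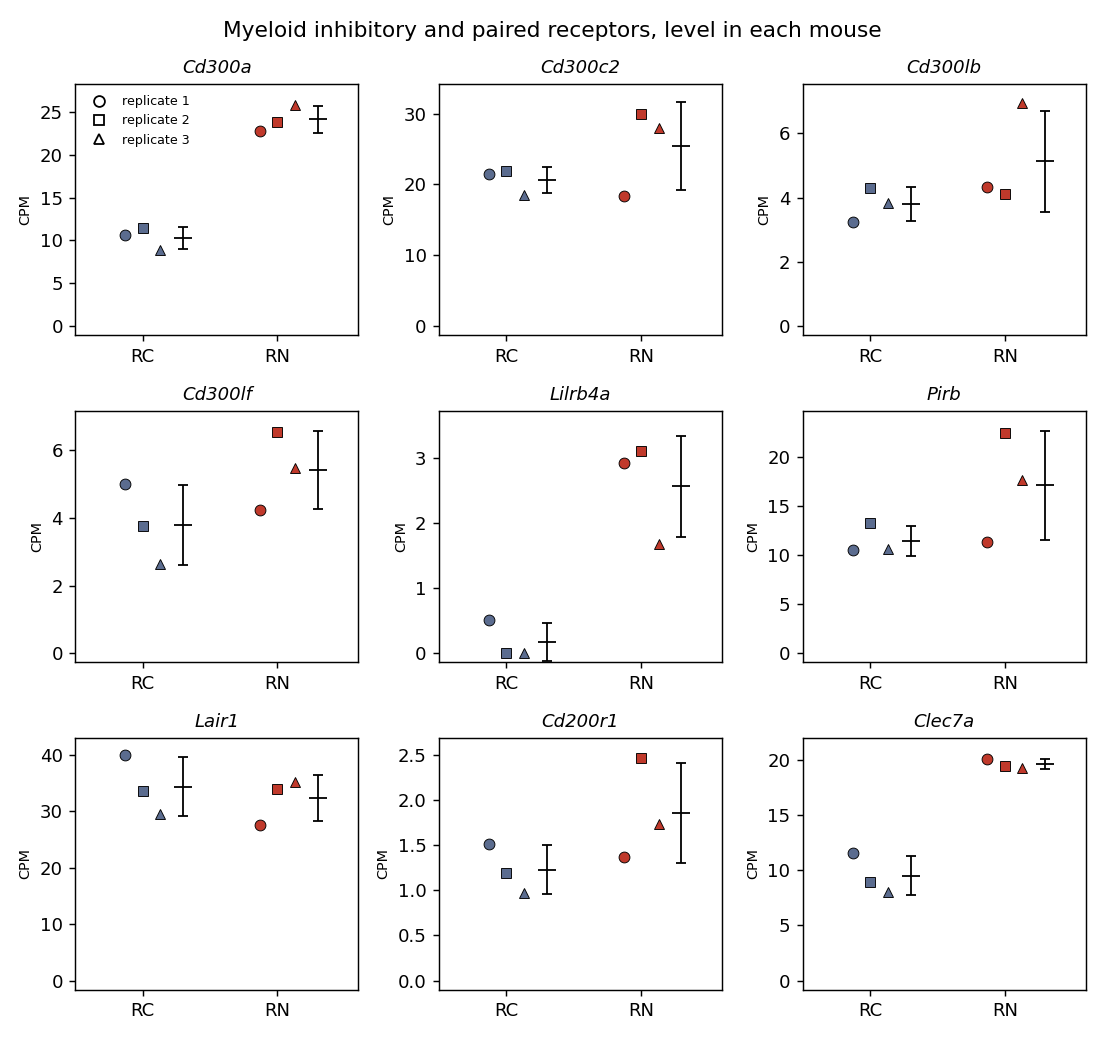
CPM of each receptor (vertical axes, each from 0 with its own range) in the 3 RC and the 3 RN mice. Points are mice, shaped by replicate number, and bars give the mean ± SD. The groups separate for Cd300a, Lilrb4a and Clec7a and overlap for the other 6 receptors, in most of them through RN replicate 1.

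Lilrb4a (gp49B, ENSMUSG00000112148), an ITIM receptor of myeloid cells and mast cells, gave 9, 0 and 0 counts in the RC mice, against 49, 58 and 30 in the RN mice. The RN mice lay above the RC mice, and the counts in RC replicates 2 and 3 were at the limit of detection. Pooled over the mice of a group, its level was 14.8 times higher in RN, and without RC replicate 1 the remaining RC mice had no count, which makes it at least 29.2-fold higher against a limit of 3 counts over the group. Its fitted log2 fold change of 3.85 (standard error 0.897) rests on these near-zero counts.

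Reads of the 1381-base Lilrb4a transcript cannot be separated by sequence from those of Gm49339, which contains it. The exons of Lilrb4a cover 1437 bases, and its other transcripts were not compared. Gm49339 gave 326, 270 and 255 counts in the RC mice, against 255, 426 and 372 in the RN mice, and the groups overlapped (log2 fold change 0.26, standard error 0.177, adjusted p = 0.649 in edgeR's quasi-likelihood test, adjusted over all tested genes by the method of Benjamini and Hochberg). Lilrb4a held 2.69% of the counts of both rows in RC replicate 1 (exact 95% binomial interval 1.24% to 5.04%) and none in RC replicates 2 and 3, with upper bounds of 1.36% and 1.44%. In RN replicates 1 to 3 it held 16.1% (12.2% to 20.7%), 11.98% (9.23% to 15.2%) and 7.46% (5.09% to 10.5%). Each RN mouse thus had a larger share than each RC mouse, as a description of how the deposited counts were divided. The intervals cover counting error alone, not the spread between mice, and treat the divided reads as independent.

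Summed into 1 row, Lilrb4a and Gm49339 gave 335, 270 and 255 counts in the RC mice, against 304, 484 and 402 in the RN mice. The mean of the sum was 16.5 ± 2.12 CPM for RC against 22.1 ± 3.91 CPM for RN, which is a log2 difference of 0.42 (standard error 0.167), with RN replicate 1 inside the RC range. With Lilrb4b added as well the log2 fold change was 0.55 (standard error 0.182) and the groups still overlapped. The 14.8-fold difference of the Lilrb4a row was not seen in the sum with Gm49339, which held most of the summed counts. The sum cannot tell a change of Lilrb4a from a different division of reads between the rows. The method of that division is not given in the sources used here. The cause of the different shares was not tested.

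Lilrb4b, whose product (gp49A) lacks the ITIM, gave 51, 49 and 41 counts in the RC mice, against 58, 155 and 111 in the RN mice. Each RN mouse lay above the RC mice, RN replicate 1 only narrowly. The mean was 2.71 ± 0.317 CPM for RC against 5.98 ± 2.43 CPM for RN, which is a log2 difference of 1.14 (standard error 0.329, adjusted p = 0.208 in edgeR's quasi-likelihood test), which did not pass the test.

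**Figure D2:**
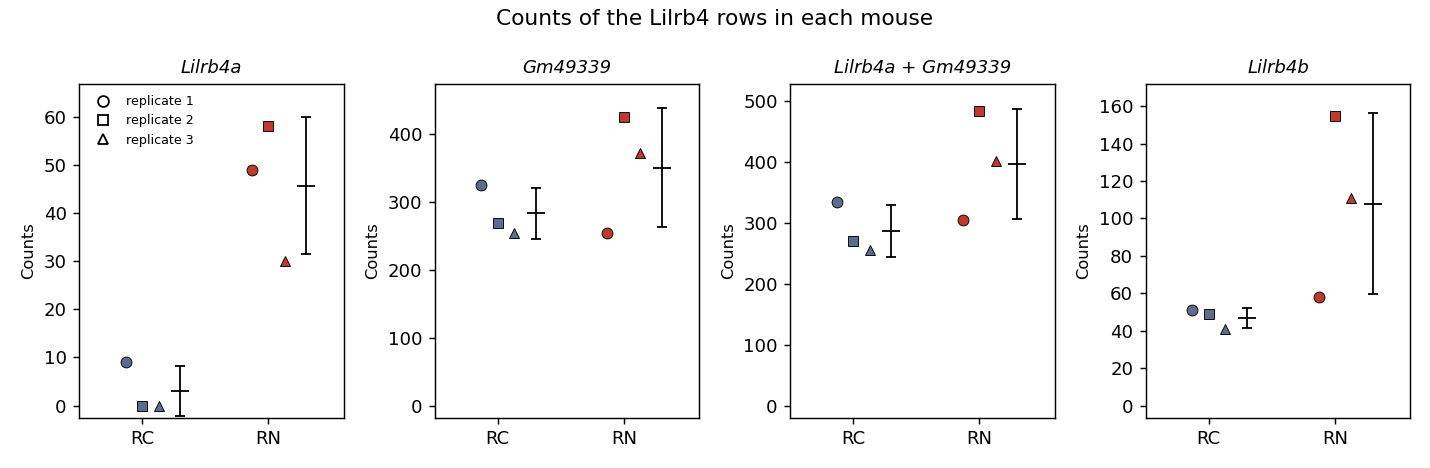
Counts (vertical axes, each from 0 with its own range) of Lilrb4a, of Gm49339, of their sum and of Lilrb4b in the 3 RC and the 3 RN mice, with points shaped by replicate number and bars for the mean ± SD. Lilrb4a separates the groups, at 0 to 9 against 30 to 58 counts, while its sum with Gm49339 overlaps, at 255 to 335 against 304 to 484.

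Of the 9 receptors, 8 had a higher mean in RN and 1 a lower mean, with a median log2 fold change of 0.58 against 0.0037 over all tested genes. In 3 of the 9 every RN mouse lay above every RC mouse, where 8.18% of all tested genes did and 8.12% lay below. With Lilrb4a and Gm49339 summed the median was 0.51. DESeq2's Wald test, which called 0.63% of 15864 genes higher and 0.548% lower by the same thresholds, called Cd300a, Clec7a and Lilrb4a. These counts follow from how the receptors were chosen and are given without a test.

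The mice did not differ in 1 step. RN replicate 1 lay above the RC range for 4 receptors, within it for 3 and below it for 2, whereas RN replicate 2 lay above it for 7 and RN replicate 3 for 8. In Cd300c2, Cd300lf, Pirb and Cd200r1 the other two RN mice were both above the RC range and RN replicate 1 was not. The 3 receptors that separated the groups were high in RN replicate 1 as well.

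With the group means removed, the deviations of the receptors over the 6 mice were mostly alike. Of the 36 pairs, 30 had a correlation above 0, with a median of 0.53 and a range from -0.66 (Cd300lb with Lilrb4a) to 0.93 (Cd300lf with Lair1). Cd300lf followed the mean of the other receptors most closely, at 0.99, and Lair1 followed at 0.94. Cd300lb did so least, at -0.32. These are descriptions over 6 mice that share library depth and tissue composition. For every receptor but Lilrb4a, the mean of the others includes Lilrb4a with its near-zero RC counts.

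Outside the 9 receptors, the tested genes whose deviations were most like the receptors' mean were Runx3 (0.997), Npas4, Tmem268, Ccn4 and Tnfsf10 (each 0.996). This is a likeness of the deviations over 6 mice among 14956 tested genes, with no p. The mean weighs the 9 receptors equally and includes Lilrb4a, whose 9, 0 and 0 RC counts gave wide deviations on the log2 scale. The order of these genes without Lilrb4a was not computed.

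Per exon length, in TPM (counts scaled by the exon lengths of GENCODE M21 and then by library), Cd300c2 had the highest level in both groups, at 43.3 ± 4.69 in RC and 55.0 ± 12.96 in RN. In RC, Lair1 (11.9 ± 2.25) and Clec7a (10.4 ± 2.36) came next and overlapped, followed by Pirb (7.46 ± 0.888). Cd300a (5.52 ± 0.765) overlapped with Cd300lf (5.02 ± 1.73), which in turn overlapped with Cd300lb (3.27 ± 0.363), and Cd200r1 (1.62 ± 0.416) and Lilrb4a (0.303 ± 0.524) were the lowest.

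In RN, Clec7a was the second at 22.1 ± 0.720 TPM and Cd300a the third at 13.4 ± 0.788, and neither overlapped with its direct neighbours in the order. Cd300a did overlap with Pirb further down, at 12.7 to 14.2 TPM against 7.74 to 15.0 TPM, so its place above Pirb was not separated. Lair1 (11.6 ± 1.35) and Pirb (11.5 ± 3.63) overlapped. Cd300lf was at 7.34 ± 1.49, Lilrb4a at 4.59 ± 1.39 and Cd300lb at 4.58 ± 1.38, the last 2 overlapping, and Cd200r1 was the lowest at 2.52 ± 0.731. Thus Clec7a and Cd300a passed Lair1 in the order while Lair1 itself stayed near its RC level. The position of Lilrb4a is subject to the division of reads with Gm49339.

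**Figure D3:**
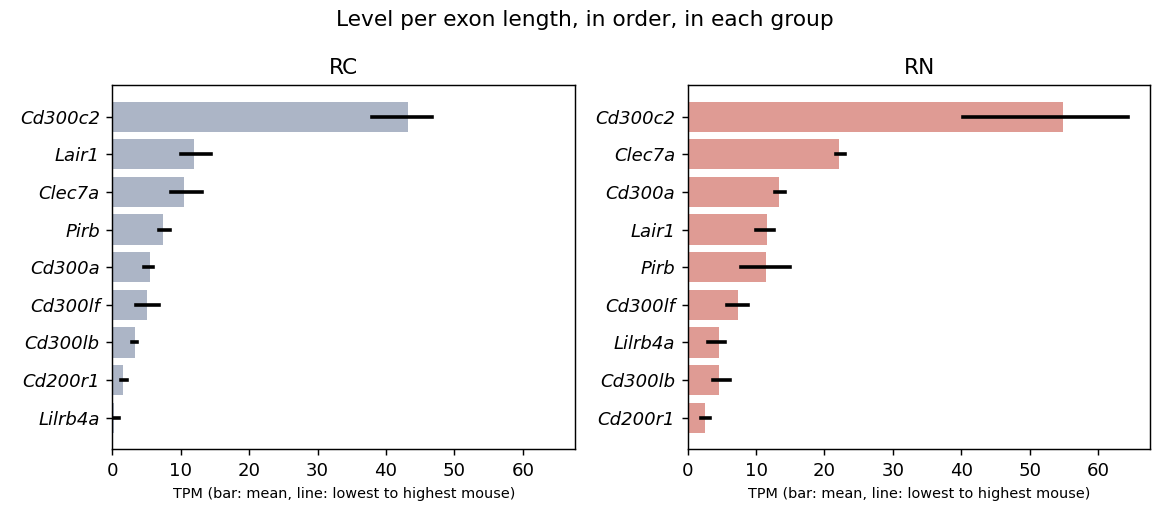
Level of each receptor per exon length (horizontal axis, TPM from 0), in order, in RC (left) and RN (right). Bars give the mean of 3 mice and lines run from the lowest to the highest mouse. Cd300c2 leads in both groups, and Clec7a and Cd300a stand above Lair1 in RN only.

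The tissue was bulk, so fewer cells of a type and less RNA per cell cannot be told apart. Markers were therefore examined beside the receptors. The 9 homeostatic microglia markers, all present and led by Cx3cr1, Tmem119 and Selplg, had sums of 317 to 335 CPM in the RC mice and 267 to 356 CPM in the RN mice, with RN replicate 1 the lowest. The 10 pan-myeloid genes, led by Ctss, Laptm5 and Csf1r, had sums of 1454, 1390 and 1273 CPM in the RC mice and of 1265, 1874 and 1727 CPM in the RN mice. RN replicate 1 thus had the lowest sum in both lists. By mean log2 CPM it was the lowest mouse for the pan-myeloid genes only, at 6.16. For the homeostatic genes it was at 4.23, inside the RC range of 4.08 to 4.30. The part of myeloid content in these receptors' values was not tested. The 14 markers of disease-associated macrophages, led by Apoe, Gpnmb and Spp1, all had a higher mean in RN, with sums of 7804 to 9581 CPM in the RC mice and 9406 to 12570 CPM in the RN mice. Of these 14 markers 1 was called (Atp6v0d2, a proton pump subunit) and 7 lay above RC in every RN mouse, where 0.0602% and 8.18% of all tested genes did.

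Markers of other cells that can carry these receptors were summed as well. The 10 neutrophil markers had sums of 26.7 to 34.4 CPM in the RC mice and 26.3 to 36.3 CPM in the RN mice. The 8 mast cell markers had sums of 9.02 to 22.3 CPM in the RC mice and 5.14 to 22.6 CPM in the RN mice, mostly from Hdc, with Tpsab1 and Ms4a2 at 0 in every mouse. The 8 monocyte markers, mostly Ace, had sums of 136, 245 and 49.3 CPM in the RC mice and 77.6 to 88.7 CPM in the RN mice. In RC these sums had the same order as the choroid plexus sums of 2785, 8496 and 327 CPM, while in RN the orders differed. They are therefore not read as monocyte content, and the source of the Ace counts was not tested. The 9 border macrophage markers, led by Stab1, had sums of 228 to 240 CPM in the RC mice and of 150, 222 and 249 CPM in the RN mice. The 7 dendritic cell markers had sums of 18.7 to 27.7 CPM in the RC mice and 21.2 to 24.5 CPM in the RN mice, and the 10 lymphocyte markers had sums of 12.1 to 20.6 CPM and 7.08 to 21.4 CPM.

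Among the brain's own cells, the 6 neuronal markers had a median log2 fold change of 0.11 and the 7 astrocyte markers one of -0.40. The 6 oligodendrocyte markers had one of -0.23 and the 8 thalamic markers one of -0.54, with none called in these lists. All 7 astrocyte markers had a lower mean in RN, and 5 lay below RC in every RN mouse, where 8.12% of all tested genes did. Of the oligodendrocyte markers 1 did, and of the neuronal and thalamic markers 0. When the fit also held a choroid plexus score, the log2 fold changes of the receptors were 1.52 for Cd300a, 1.21 for Clec7a, 4.31 for Lilrb4a, 1.02 for Cd300lf, 0.91 for Cd200r1, 0.84 for Pirb, 0.58 for Cd300lb, 0.53 for Cd300c2 and 0.12 for Lair1. Each was larger than without it, that of Lair1 changed its sign, and Cd300a was no longer called. The score (mean log2 CPM of the markers) ran from 2.98 to 6.92 in the RC mice and from 1.96 to 2.43 in the RN mice. Because the groups did not overlap in it, the fit cannot separate choroid plexus from virus, and nothing is concluded from these values.

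Set against the mean log2 CPM of the pan-myeloid genes in each mouse, Cd300a was higher in RN by 1.02 and Clec7a by 0.85 on the log2 scale, with every RN mouse above every RC mouse for both. Lilrb4a was higher by 3.49 in the same way, within the limit given for its reads. Of all tested genes, 1.79% lay above RC in every RN mouse on this scale and 11.3% below. Lair1 was the 1 receptor below, by -0.29. Cd300c2 (0.07), Cd300lb (0.19), Cd300lf (0.32), Pirb (0.32) and Cd200r1 (0.33) overlapped between the groups. Cd300lb was spread over both groups, while the 3 RN mice of Cd300lf lay close together on this scale.

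Against the homeostatic microglia genes, the same 3 receptors stood above RC in every RN mouse, by 1.12 for Cd300a, 0.95 for Clec7a and 3.596 for Lilrb4a, where 4.13% of all tested genes did, and the other 6 overlapped. Against the disease-associated macrophage genes, a comparison chosen after the data were seen, Cd300a (0.38) and Clec7a (0.21) overlapped between the groups and only Lilrb4a (2.85) stood above RC in every RN mouse. On that scale 0.361% of all tested genes lay above and 76.7% below, among the latter Cd300c2 (-0.58), Pirb (-0.32) and Lair1 (-0.93). The groups thus separated for Cd300a and Clec7a against the general and the homeostatic myeloid genes and overlapped against the disease-associated ones.

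**Figure D4:**
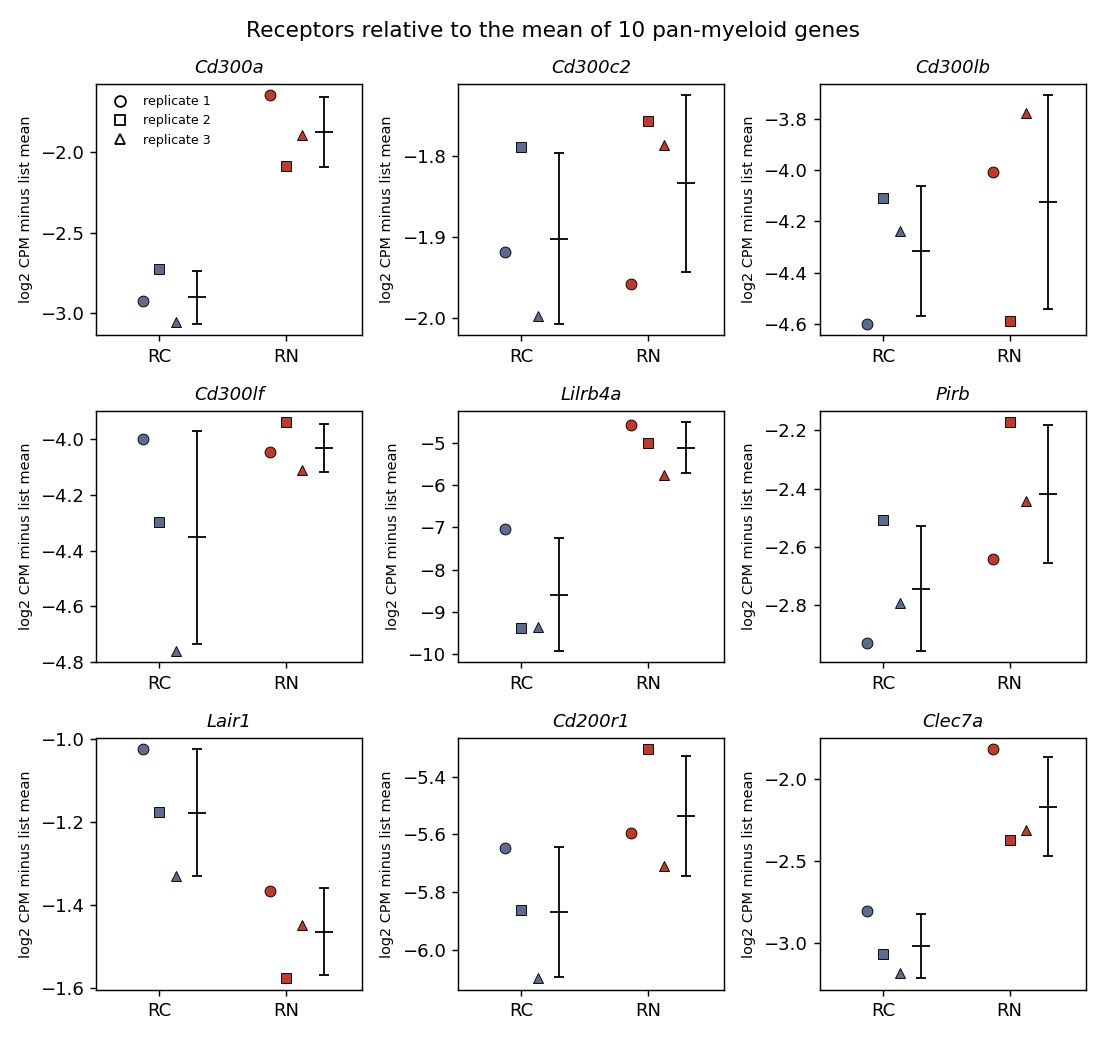
Log2 CPM of each receptor minus the mean log2 CPM of 10 pan-myeloid genes in the same mouse (vertical axes, each with its own range), in the 3 RC and the 3 RN mice. Points are mice, shaped by replicate number, and bars give the mean ± SD. Cd300a, Clec7a and Lilrb4a are higher in every RN mouse, Lair1 is lower in every RN mouse and the other 5 overlap.

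The relatives of the receptors were mostly low. Of 8 other Cd300 genes, 2 (Cd300c and Cd300ld2) had no count and 2 were tested, with log2 fold changes of 0.67 for Cd300ld (standard error 0.384, adjusted p = 0.578 in edgeR's quasi-likelihood test) and 0.10 for Cd300ld3 (adjusted p = 0.954). Of 13 other LILR, PIRA and related genes, 9 had a row and 3 were tested, Lilrb4b, Pira2 (log2 fold change 0.26, adjusted p = 0.852) and Lilra5 (0.28, adjusted p = 0.799). None was called in either family.

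Of 19 CD200 receptor and C-type lectin relatives 11 were tested, 5 with a higher and 6 with a lower mean in RN, and none was called. The smallest p-values belonged to Clec4a1 (DCIR4, log2 fold change -1.14, standard error 0.448, adjusted p = 0.367), Clec1a (-0.85, adjusted p = 0.392) and Clec4n (Dectin-2, a receptor for fungal mannans, 0.66, adjusted p = 0.441). Clec4a1 gave 26, 26 and 23 counts in the RC mice, against 5, 13 and 17 in the RN mice. Both it and Clec1a, the neighbour of Clec7a, lay below RC in every RN mouse, but neither passed the test. They were 2 of the 11 tested relatives, where 8.12% of all tested genes lay below in this way.

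Of 13 tested inhibitory receptors outside these families, 10 had a higher and 3 a lower mean in RN, with a median log2 fold change of 0.14 and none called. Siglece, which binds sialic acids, gave 115, 90 and 87 counts in the RC mice, against 41, 64 and 68 in the RN mice, which is a log2 difference of -0.80 (standard error 0.240, adjusted p = 0.227 in edgeR's quasi-likelihood test). Cd22, another sialic acid receptor, was at 0.56 (adjusted p = 0.355) and Cd244a at 1.10 (adjusted p = 0.459). The inhibitory receptors named here therefore had values on both sides of 0.

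Of 12 tested activating receptors, 11 had a higher mean in RN and Tlr2 a lower one (-0.11), with a median log2 fold change of 0.39 and none called. Of these, 7 had an unadjusted p under 0.05 in edgeR's quasi-likelihood test, all higher in RN. Of all 14956 tested genes, 11.8% did in either direction, 814 higher and 947 lower. Another count was of genes above RC in every RN mouse, which were 4 (Fcgr4, Itgax, Treml2 and Sirpb1c), where 8.18% of all tested genes were. Itgax is also one of the disease-associated macrophage markers. Fcgr4, an activating Fc receptor for IgG that signals through the gamma chain, gave 104, 111 and 78 counts in the RC mice, against 195, 396 and 376 in the RN mice, which is a log2 difference of 1.67 (standard error 0.266, adjusted p = 0.0696). Its adjusted p ran from 1.09e-06 in DESeq2 to 0.206 without RN replicate 2 over the alternatives, and it also passed with no filter on low counts (0.0397) and without RN replicate 1 (0.0240). Itgax (CD11c) was at 1.09 (adjusted p = 0.108, from 2.88e-05 in DESeq2 to 0.268 without RN replicate 3) and Treml2 at 0.89 (adjusted p = 0.249).

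Downstream, the adaptors and kinases of the activating receptors had a higher mean in RN in 15 of 16 tested genes. Their median log2 fold change was 0.22, and none was called. An unadjusted p under 0.05 was reached by 4, all higher, against 814 higher and 947 lower of all 14956 tested genes. Tyrobp (DAP12), the partner of Cd300c2 and Cd300lb, gave 1411, 1485 and 1466 counts in the RC mice, against 1638, 2286 and 2055 in the RN mice, with every RN mouse above every RC mouse (log2 fold change 0.41, standard error 0.105, adjusted p = 0.173 in edgeR's quasi-likelihood test). Fgr, a Src family kinase, was at 0.98 (adjusted p = 0.135) and Syk, which Clec7a signals through, at 0.66 (adjusted p = 0.235). For comparison, the 10 pan-myeloid genes had a median log2 fold change of 0.27, with 7 higher and 3 lower in RN. Whether the activating receptors and adaptors differed beyond myeloid genes in general was not tested.

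The phosphatases and adaptors of the inhibitory receptors had a median log2 fold change of 0.04, with 4 of 8 higher and 4 lower, 0 at an unadjusted p under 0.05 and 0 called by edgeR. Ptpn6 (SHP-1) was at 0.26 (adjusted p = 0.509), Ptpn11 (SHP-2) at -0.08 (adjusted p = 0.781) and Csk at 0.11 (adjusted p = 0.815). All 8 overlapped between the groups.

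Of 21 tested ligands, 15 had a higher and 6 a lower mean in RN, with a median of 0.11 and none called. The collagen IV chains Col4a1 and Col4a2, basement membrane collagens of the kind that Lair1 binds, lay below RC in every RN mouse, at log2 fold changes of -0.74 each (adjusted p = 0.352 and 0.323). They were the only 2 of the 21 ligands below in this way, where 8.12% of all tested genes were, and 0 lay above. Col4a1 gave 2670, 2637 and 2848 counts in the RC mice, against 823, 2072 and 2168 in the RN mice, with RN replicate 1 far below the others. C1qc, part of the complement protein that also binds Lair1, was at 0.37 (adjusted p = 0.336). Cd200, the ligand of Cd200r1, was at 0.27 (adjusted p = 0.476) and was named after its value was seen.

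**Figure D5:**
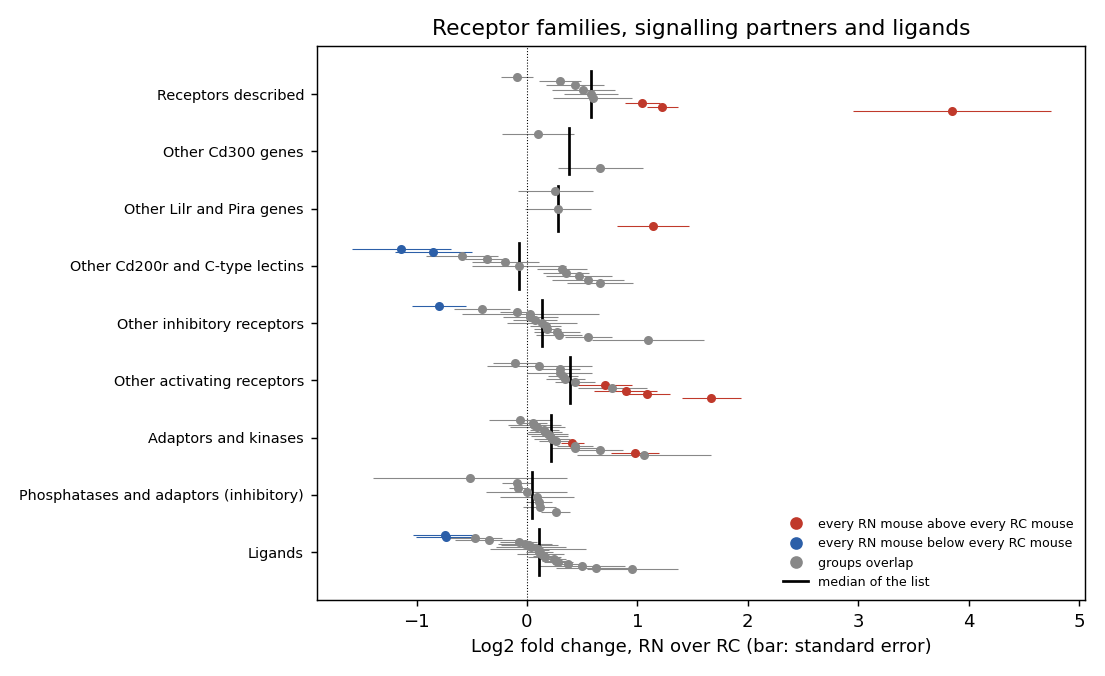
Log2 fold changes of RN over RC (horizontal axis) for the 9 receptors and for the tested genes of 8 related lists (rows), with standard errors as bars and the median of each list as a black line. Red marks genes with every RN mouse above every RC mouse, blue the reverse and grey an overlap. Activating receptors, their adaptors and the other inhibitory receptors lie mostly to the right of 0, and the inhibitory phosphatases lie around it.

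Promoter sequences were given for 7 of the 9 receptors by RefSeq (GRCm38.p6), 250 bases before and 50 after the start of the gene. GAGGAAGT, the core letters of a site of PU.1, the main transcription factor of myeloid cells, occurred on either strand in the promoters of Cd300lf and Pirb, 2 of the 7, and in 3.20% of all 32851 promoters. TGANTCA (AP-1) occurred in none of the 7 and in 7.81% of all, CACGTG in none and in 7.15%, and CAGATG, an E-box of the kind NeuroD1 binds, in Pirb alone and in 17.2% of all. A match is a description and not a site.

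The 2 promoters with the PU.1 letters are shown beside those of Cd300a and Clec7a, whose levels separated the groups, as 150 bases with the PU.1 letters in capitals. They are Cd300a at chr11:114889891-114890040 (+ strand), Clec7a at chr6:129472780-129472929 (- strand) and Pirb at chr7:3720383-3720532 (- strand), each ending at the base before the start, and Cd300lf at chr11:115133985-115134134 (- strand), which ends 8 bases past it.
Cd300a: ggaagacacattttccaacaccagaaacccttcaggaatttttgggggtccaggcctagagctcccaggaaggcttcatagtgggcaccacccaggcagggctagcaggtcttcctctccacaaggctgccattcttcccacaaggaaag
Clec7a: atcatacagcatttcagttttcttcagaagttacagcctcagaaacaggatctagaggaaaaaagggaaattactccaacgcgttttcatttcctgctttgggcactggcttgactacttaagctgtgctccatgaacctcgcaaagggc
Pirb: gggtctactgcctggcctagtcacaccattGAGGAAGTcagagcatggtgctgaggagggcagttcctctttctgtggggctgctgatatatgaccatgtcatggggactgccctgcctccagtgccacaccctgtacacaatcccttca
Cd300lf: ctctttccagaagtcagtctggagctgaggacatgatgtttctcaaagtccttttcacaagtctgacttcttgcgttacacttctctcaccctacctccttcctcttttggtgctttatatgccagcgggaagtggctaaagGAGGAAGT
In Pirb the letters begin 120 bases before the start, and in Cd300lf they begin at the start itself.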

How the data were processed

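The authors deposited whole-number counts per gene for each mouse, without normalization, with Ensembl identifiers and symbols. Tissue was perfused with saline, libraries were made with NEBNext Ultra and sequenced on a NovaSeq. The submitters' processing notes name fastp 0.18.0, FastQC, HISAT2 2.2.4, RSEM 1.2.19 and GRCm39, with no role or order, so the counting of reads that match several genes is not given in the sources used here. Positions printed are of GRCm38, from GENCODE M21 and RefSeq, and were not carried over to GRCm39.

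Groups and replicate numbers came from the sample labels. Genes of low count were removed with filterByExpr of edgeR 4.0.16 (minimum count 10, R 4.3.3), and TMM factors were applied. Group was the only term of the quasi-likelihood test, and p-values were adjusted after Benjamini and Hochberg. Calls needed an adjusted p below 0.05 with a change of 2-fold or more. DESeq2 1.42.0, which the methods of the study used, was an alternative. Log2 CPM used a prior count of 2. TPM used the union of exons of M21, which 21806 of the 21899 genes had. The biological coefficient of variation was 17.4%. The edgeR and DESeq2 fits were tested on simulated data.

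The receptors, the gene lists and the rule for named genes were chosen with earlier results of these data known. Named were the 9 receptors, Neurod1, up to 3 genes of each related list by smallest p, the leading markers by CPM and the 5 genes with the most alike deviations. Gm49339, Cd200, Atp6v0d2, Tlr2 and Sirpb1c were named after their values were seen. Of 241 genes on the lists, 237 had a row, and 1 further marker is not reported here. Alternatives were DESeq2, its size factors, no filter, at least 10 counts in every mouse, edgeR without its legacy option, no fold threshold, the replicate block, a choroid plexus covariate, scales relative to myeloid genes and each mouse left out. The summed rows and the disease-associated scale were added after the data were seen. Protein sequences were not used here.

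RC and RN share replicate numbers. Deviations from the group means correlated at 0.173, 0.120 and 0.209 between mice of number 1, 2 and 3. Between RC replicate 1 and RN replicate 2 the correlation was 0.156, above that of number 2. The other pairs of unlike number ran from -0.285 to 0.060, below all 3 pairs of like number. These values do not settle whether the numbers pair the mice, and the labels do not say so. The main test was therefore unpaired, and the blocked fold change is given for Cd300a, the receptor whose call it changed. P-values of edgeR set the difference between the groups against the spread between the 3 mice of a group, estimated with information shared across the tested genes.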

Additional observations from a re-analysis of the deposited data

How the results depend on the processing

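The 9 receptors kept their direction under DESeq2, no filter, the other size factors, edgeR without its legacy option and the replicate block, as did the 8 that had at least 10 counts in every mouse (all but Lilrb4a). The median log2 fold change of the 9 ranged from 0.35 to 0.77 with each mouse left out. The calls were less stable. DESeq2's Wald test called 100 genes higher and 87 lower, with 3 receptors among the higher. No filter on low counts gave 36 and 7, with 2 receptors (Cd300a and Clec7a). The replicate block gave 17 and 5, with 0 receptors, so it ended the call of Cd300a. Of the 9 genes called higher in the main test, 6 stayed called with the block, Neurod1 and Atp6v0d2 among them. The choroid plexus covariate, whose values did not overlap between the groups, also ended the call of Cd300a. Leaving out 1 mouse gave 3 to 26 higher genes, 0 to 18 lower genes and 0 to 1 receptor. The low ends for higher genes came without RC replicate 2 or RN replicate 2, the high end without RN replicate 1, and the 18 lower genes without RC replicate 3. For Cd300ld3 the log2 difference ran from -0.21 (without RN replicate 3) to 0.40 (without RN replicate 1). Causes were not tested. Lilrb4a, Cd200r1, Cd300lb and Cd300lf rested on 0 to 89 counts per RC mouse.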
